A study of Homo sapiens with 4 samples.

Results

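Protein synthesis runs on soluble factors that visit the ribosome in turn. Initiation factors (eIFs) load the starter tRNA, open the capped end of the messenger RNA and select the start codon, and elongation factors (eEFs) then deliver aminoacyl-tRNAs and move the ribosome along. Cells control both phases through phosphorylation, chiefly of eIF2 by stress kinases, of the 4E-binding proteins by mTOR and of eEF2 by its own kinase. The genes described here are those whose symbol begins with EIF1 to EIF6, EEF1 or EEF2, leaving out the eIF2 kinases (EIF2AK) and EIF1AY. The rule gave 63 genes of 20812 targets. Of these, 43 were classed as initiation factors, 12 as elongation factors, 4 as proteins that bind eIF4E, and 4 carry the old symbols EIF2C1 to EIF2C4 of the Argonaute genes, which act in gene silencing by small RNAs and take no part in initiation by eIF2. EIF5A and its relatives EIF5A2 and EIF5AL1 were counted with elongation, because eIF5A acts mainly there in spite of its name. Otherwise classes followed gene symbols, and the role of each gene was not checked. EIF4A3 and EIF1AD thus count as initiation factors and the kinase gene EEF2K as an elongation factor.

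The cells were HCT116, an established human colon cancer line, in 4 groups. They were hIDO1 overexpressing cells treated with indole, hIDO1 overexpressing cells treated with DMF, wild type (WT) cells treated with indole, and WT cells treated with DMF. Indole was given at 1 mM, DMF is its solvent control, and treatment lasted 24 h. IDO1 is the enzyme that starts tryptophan breakdown along the kynurenine route, and whether the overexpressing line is a clone or a pool is not given in the labels. The assay amplified 1 short target per gene, so a level depends on the amplicon, and levels of different genes are not ranked against each other below.

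Each group had 1 library, with 18283862 to 22736172 reads, so no pair of groups could be tested. IDO1 had 2440 and 3451 reads in the IDO1 line with indole and with DMF, against 2 and 0 reads in WT with indole and with DMF. Epithelial marker genes were present in all 4 libraries, with 7 of 8 at 10 CPM or more in each, and summed to 3857 to 5160.3 CPM. PTPRC, CD3E and MS4A1, markers of leukocytes, and COL1A2 and DCN, markers of fibroblasts, had 0 reads in every library. The other genes of these 2 lists were not all at 0: COL1A1 had 73.8 to 97.1 CPM and CD68 6.10 to 8.51 CPM, and CD14 and COL3A1 had 2 to 23 reads. A list of 10 genes known from embryonic kidney lines was already known from earlier results on these data to be raised in the IDO1 line. Their direction here was thus fixed in advance and is no independent check. Of the 10 genes, 7 had 0 reads in each WT library, 6 of them in both, while all 10 had reads in the IDO1 line. They summed to 130 and 126 CPM with indole and DMF there, with VIM at 58.5 and 53.7 CPM, against 3.31 and 4.75 CPM in WT. Their part in the differences between lines was not tested, and in bulk libraries fewer cells of a type and less RNA per cell cannot be told apart. Levels are CPM, the reads of a gene scaled to a common library size with TMM factors over the 4 libraries. A log2 ratio is of CPM plus 1, taken for genes with at least 10 CPM in 1 of the 2 libraries. A fold is the plain ratio of CPM with an exact 95% interval of counting error, which compares 2 libraries and not 2 conditions.

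Of the 63 genes, 55 reached 10 CPM in at least 1 library, 5 had reads below that level and 3 had no read anywhere. The genes with no read were EIF5AL1, EIF4E1B and the pseudogene EEF1DP3. The genes with few reads were EIF2B3, EIF2S2, EIF4E3, EIF2C4 and the pseudogene EIF3IP1, which had 1 read in all. Near-identical copies elsewhere in the genome leave the counts of 15 genes uncertain, among them EEF1A1 with 7 such copies, EIF4B with 4, and EEF1B2, EEF1G, EIF1AX, EIF2S3, EIF4A1, EIF4E and EIF5A with 1 or 2 each. The 63 genes took 4.11% of all reads in the IDO1 line with indole, 3.98% in that line with DMF, 4.82% in WT with indole and 4.28% in WT with DMF. Elongation factors took 2.898%, 2.80%, 3.72% and 3.11% of reads in the same 4 libraries, and initiation factors 1.15%, 1.12%, 1.03% and 1.11%. The exact 95% intervals of these shares are within 0.01 percentage points of the value on either side. The library of WT with indole thus had the highest share of elongation factor reads and the lowest share of initiation factor reads. EEF1A1 took 1.86% of reads in WT with indole and 1.38% in WT with DMF, and EEF2 1.02% and 0.86%. EIF5A went the other way, with 0.11% and 0.21%. These shares are of library totals, without TMM factors.

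**Figure D1:**
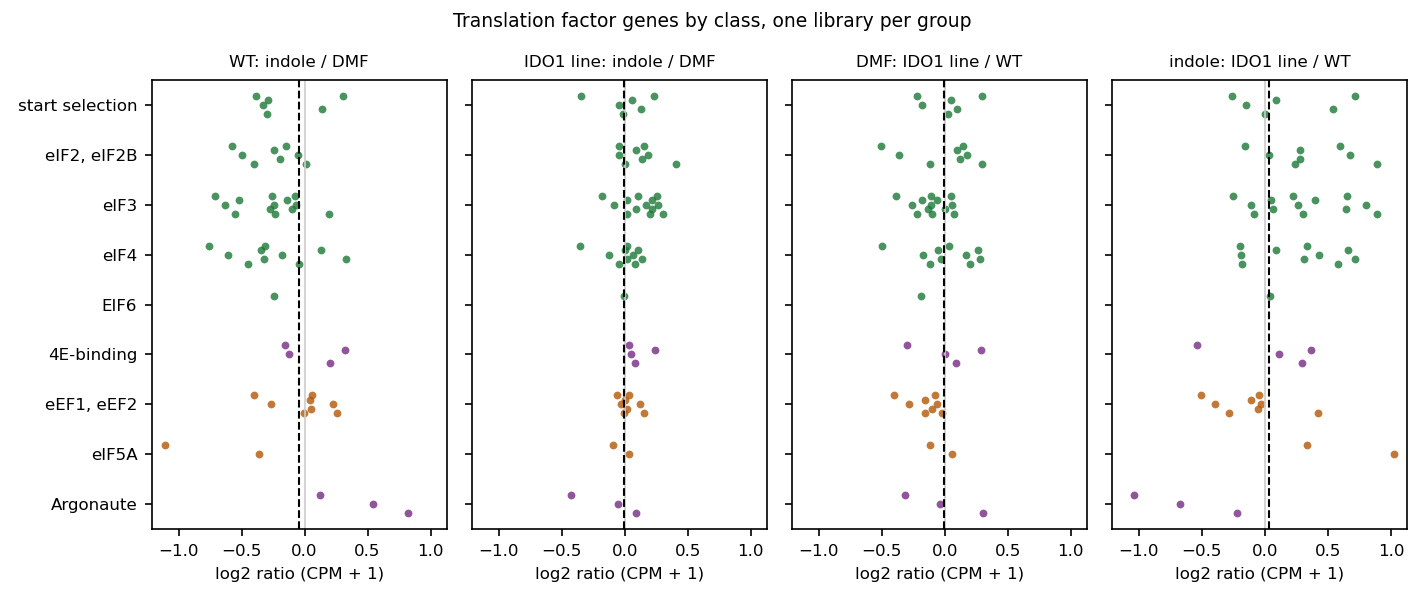
Log2 ratio of CPM plus 1 (horizontal axis) for each translation factor gene with at least 10 CPM in 1 of the 2 libraries, by class (rows), in the 4 comparisons (panels). Each point is 1 gene, green for initiation, orange for elongation and purple for the others, and the dashed line is the median of all genes. In WT with indole against DMF, 32 of 38 initiation factors lie below 0, while in the IDO1 line 27 of 38 lie above 0.

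The first comparison asked how translation factor genes differ with indole in WT cells. Most initiation factors were lower with indole and most eEF genes were close to their level with DMF or above it. Of 38 initiation factors compared, 32 had a log2 ratio below 0, against 53.8% of all 8679 genes, and their median was -0.25, against -0.04 for all genes. The 10 elongation factors were split 5 above and 5 below 0 with a median of 0.02, and the 8 eEF1 and eEF2 genes among them had 5 above 0. Scaled by library totals instead, the median of all genes was 0.14, that of initiation factors -0.081 with 25 of 38 below 0, and that of elongation factors 0.19. A change of scaling shifts all log2 ratios of a comparison by nearly the same amount. The gap between initiation factors and all genes therefore had to stay close in size, and this is no separate check. The sign of single genes near 0 was not fixed.

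The largest difference was in EIF5A, whose product carries the modified amino acid hypusine and helps the ribosome through difficult stretches such as runs of proline. It had 1040.1 CPM (20128 reads) in WT with indole, against 2239 CPM (47616 reads) in WT with DMF, 2.15-fold lower (2.12 to 2.19). Both libraries of the IDO1 line, at 2112 and 2065 CPM with indole and DMF, were close to WT with DMF, so 1 library of 4 was low. EIF5A was the only one of the 55 genes at least 2-fold lower, against 1.54% of all genes. EIF5A2, its paralog, had 9.71 CPM in WT with indole and 12.8 CPM in WT with DMF, 1.32-fold lower (1.09 to 1.59). One of the near-identical copies of EIF5A is EIF5AL1, whose own target had 0 reads.

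Among initiation factors, 4 of 38 (10.5%) were at least 1.5-fold lower with indole in WT and 0 were that much higher. Across all genes 9.72% were at least 1.5-fold lower and 7.09% that much higher, 16.8% in all, so the share past this fold was near the background. The 4 genes were EIF4A1, EIF3I, EIF3K and EIF4G1. EIF2B2, with a log2 ratio of -0.58 after the pseudocount, lay just outside the threshold, and EIF4G1, with -0.61, just inside it. With library totals 0 initiation factors passed it.

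EIF4A1 and EIF4G1 are the main helicase and the scaffold of eIF4F, the complex that binds the cap. EIF4A1 had 1119 CPM in WT with indole, against 1894 CPM in WT with DMF, 1.69-fold lower (1.66 to 1.72). EIF4G1 had 695 CPM with indole, against 1062 CPM with DMF, 1.53-fold lower (1.49 to 1.56). EIF4E, the cap-binding subunit, had 46.3 CPM with indole and 63.5 CPM with DMF, 1.37-fold lower (1.26 to 1.49). All 3 subunits of eIF4F were thus lower with indole in WT.

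The paralogs of these subunits moved less or the other way. EIF4A2, which can replace EIF4A1, had 355 CPM in WT with indole and 401 CPM in WT with DMF. The ratio of EIF4A1 to EIF4A2 reads was 4.69 and 4.89 in the IDO1 line with indole and DMF, 3.15 in WT with indole (3.07 to 3.24) and 4.72 in WT with DMF (4.61 to 4.83). EIF4G2, a relative of EIF4G1 that does not bind eIF4E, had 330.0 CPM with indole, against 339.8 CPM with DMF. EIF4G3, a close paralog of EIF4G1, had 127 CPM with indole and 101 CPM with DMF, 1.26-fold higher (1.19 to 1.33). Within the eIF4 group, 8 of 10 genes were below 0 and the median log2 ratio was -0.32. The helpers EIF4B and EIF4H, which stimulate the helicase, had log2 ratios of -0.31 and -0.34.

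Of the 13 eIF3 subunit genes, whose products form the scaffold that joins the small ribosomal subunit to the other factors, 12 were below 0 in WT with indole and the median log2 ratio was -0.24. EIF3I had 20.5 CPM in WT with indole, against 34.2 CPM in WT with DMF, 1.67-fold lower (1.48 to 1.89). EIF3K had 195 CPM with indole and 302 CPM with DMF, 1.55-fold lower (1.49 to 1.62). EIF3B, a core subunit, had 183 CPM with indole and 270.2 CPM with DMF, 1.47-fold lower (1.41 to 1.54). EIF3A, the largest subunit, was the exception, at 489.9 CPM with indole and 428 CPM with DMF. EIF3C, EIF3G and EIF3M lay between -0.26 and -0.23, and EIF3E, EIF3F, EIF3H and EIF3L between -0.14 and -0.06 on the log2 scale. The subunits of this one complex therefore spread over a range from -0.71 to 0.19 and did not share 1 ratio.

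eIF2 carries the starter tRNA and eIF2B recharges it with GTP. EIF2A and EIF2D, subunits of neither, were classed with them by symbol. Of these 8 genes, 7 were below 0 in WT with indole, with a median log2 ratio of -0.22. EIF2B2, the beta subunit of eIF2B, had 30.9 CPM with indole and 46.6 CPM with DMF, 1.51-fold lower (1.36 to 1.67). EIF2S1, the alpha subunit of eIF2 that stress kinases phosphorylate, had 43.0 CPM with indole and 61.0 CPM with DMF, 1.42-fold lower (1.30 to 1.55). EIF2B5, the catalytic subunit of eIF2B, had 45.1 CPM with indole and 59.8 CPM with DMF, 1.33-fold lower (1.22 to 1.45), and EIF2B4 was 1.11-fold lower (1.02 to 1.21). EIF2S3, the gamma subunit that binds the tRNA, was level at 149 CPM with indole and 148 CPM with DMF. Of the start codon factors, EIF5B, which joins the ribosomal subunits, had a log2 ratio of -0.38, and EIF5, the partner that triggers GTP hydrolysis by eIF2, had 27.6 CPM with indole and 22.2 CPM with DMF, 1.24-fold higher (1.10 to 1.41). EIF6, which keeps the large subunit from joining early, had a log2 ratio of -0.24.

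**Figure D2:**
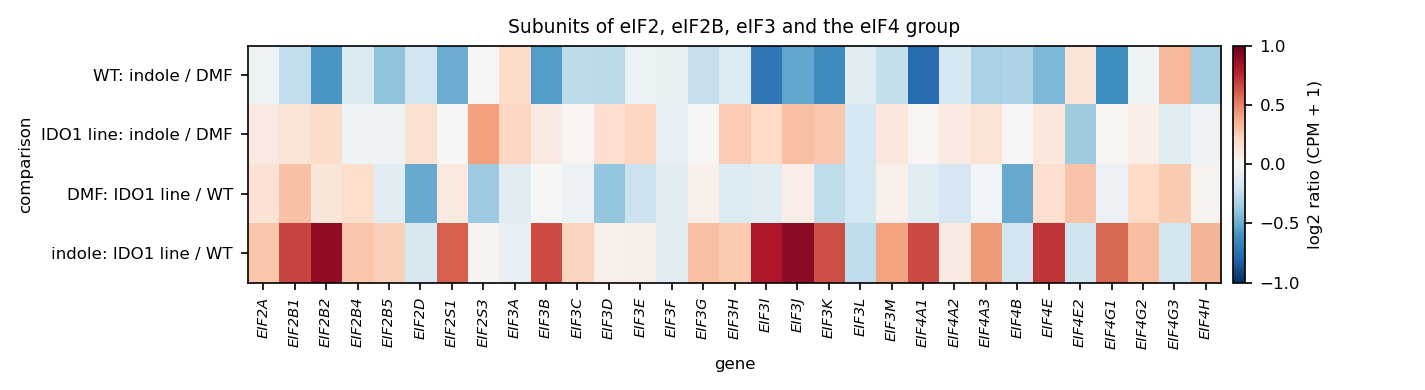
Log2 ratio of CPM plus 1 (colour, red higher and blue lower in the first-named library) for genes of eIF2, eIF2B, eIF3 and the eIF4 group (columns) in the 4 comparisons (rows). Genes with at least 10 CPM in 1 of the 4 libraries are shown, and the darkest blue cell, EIF4A1 in WT with indole against DMF, has a value of -0.76.

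The elongation factors were divided in WT, and the eEF1A genes were higher with indole. EEF1A1, which delivers aminoacyl-tRNAs to the ribosome, had 17582 CPM in WT with indole, against 14698 CPM in WT with DMF, 1.20-fold higher (1.19 to 1.20). EEF1A2, its paralog best known from muscle and neurons, had 920.1 CPM with indole and 786 CPM with DMF, 1.17-fold higher (1.15 to 1.19). EEF2, which moves the ribosome by a codon, had 9628 CPM with indole and 9221 CPM with DMF. Its kinase gene EEF2K had 67.4 CPM with indole and 65.3 CPM with DMF, a ratio of 1.03 (0.957 to 1.12).

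The subunits of eEF1B, which recharges eEF1A with GTP, were not all alike. EEF1G and EEF1B2 had log2 ratios of -0.01 and 0.05. EEF1D had 1031 CPM in WT with indole, against 1242 CPM in WT with DMF, 1.20-fold lower (1.18 to 1.23). EEF1E1, whose product is part of the complex of tRNA synthetases and not of the elongation cycle itself, had 58.2 CPM with indole and 77.3 CPM with DMF, 1.33-fold lower (1.23 to 1.43). The genes for the 2 steps of the elongation cycle, eEF1A and eEF2, were thus level or higher while EEF1D and EEF1E1 were lower.

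**Figure D3:**
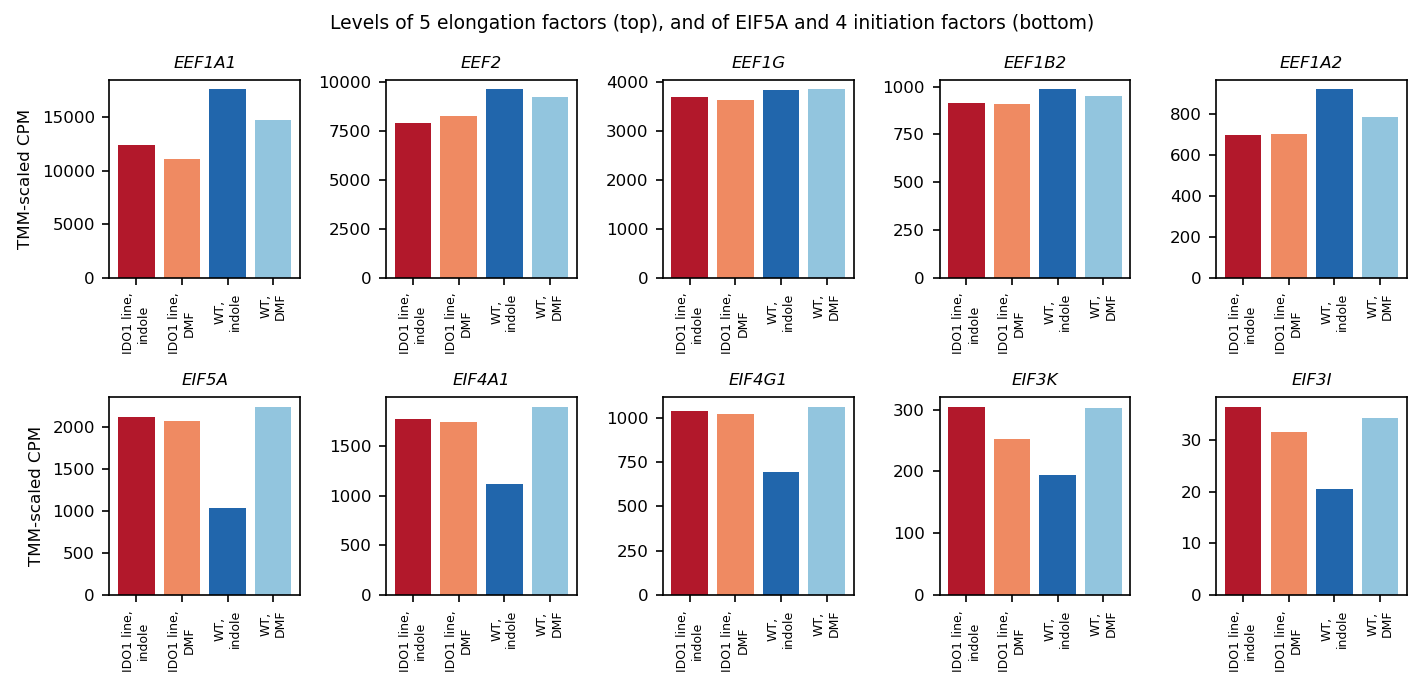
TMM-scaled CPM (vertical axes, each from 0 with its own scale) of 10 translation factor genes in the 4 libraries, 1 bar per library with no replicates. WT with indole has the lowest bar for EIF5A, EIF4A1, EIF4G1, EIF3K and EIF3I and the highest bar for EEF1A1, EEF2, EEF1B2 and EEF1A2.

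The ratios in WT also moved with abundance across all genes. Genes whose higher CPM was between 10 and 50 had a median log2 ratio of 0.03 (4712 genes), and those at 500 CPM or more a median of -0.32 (310 genes). At 10 to 50 CPM the 9 initiation factors had a median of -0.29, and at 50 to 100 CPM the 5 there had -0.40, against -0.07 for all 1901 genes. At 100 to 500 CPM the 17 initiation factors had -0.24, against -0.18 for all 1756 genes. At 500 CPM or more the 7 initiation factors had a median of -0.10 and the 7 elongation factors 0.05, both above the median of all genes of that abundance. Initiation factors were thus below genes of like abundance at low levels and close to or above them at high levels, and the part of abundance in these ratios was not tested.

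**Figure D4:**
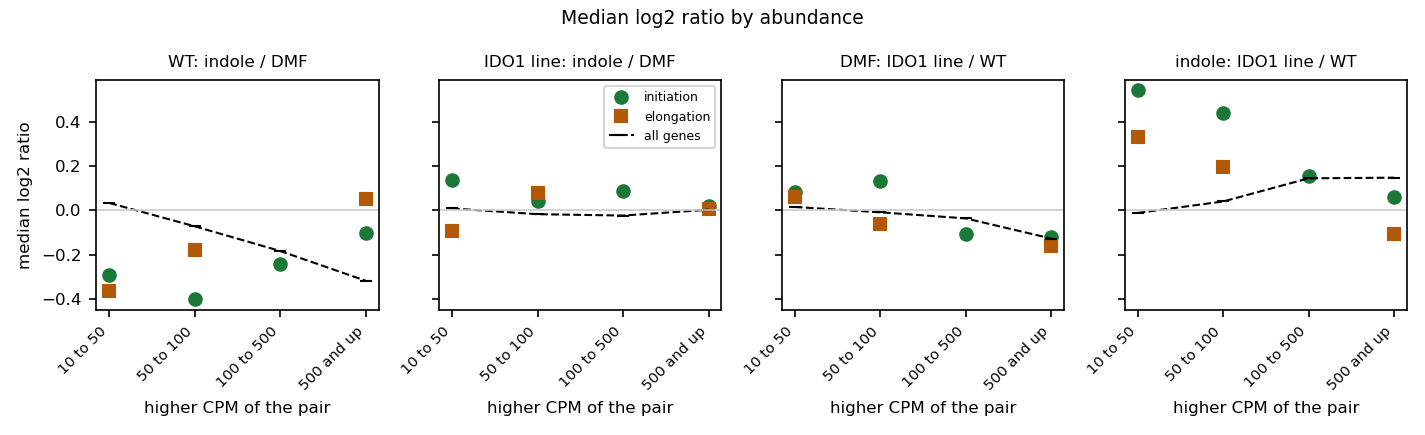
Median log2 ratio (vertical axis) of initiation factors (green circles), elongation factors (orange squares) and all genes (dashed line) by the higher CPM of the 2 libraries (horizontal axis), in the 4 comparisons. In WT with indole against DMF, the line of all genes runs from 0.03 to -0.32, and the 7 elongation factors at 500 CPM or more lie at 0.05.

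The 4E-binding proteins hold back cap-dependent initiation by keeping eIF4E from eIF4G. EIF4EBP1 had 188 CPM in WT with indole, against 209 CPM in WT with DMF. EIF4EBP2 had 109 CPM with indole and 94.2 CPM with DMF, and EIF4EBP3 had 46.3 CPM with indole and 36.8 CPM with DMF, 1.26-fold higher (1.14 to 1.39). The ratio of EIF4EBP1 to EIF4E reads was 3.003 and 3.12 in the IDO1 line with indole and DMF, 4.06 in WT with indole (3.77 to 4.37) and 3.30 in WT with DMF (3.10 to 3.51). Among the Argonaute genes, EIF2C2, now called AGO2, had 201 CPM in WT with indole, against 114 CPM in WT with DMF, 1.77-fold higher (1.68 to 1.86). EIF2C3 had 78.6 CPM with indole and 53.6 CPM with DMF, 1.47-fold higher (1.36 to 1.59). EIF2C2 was the only gene of the 55 at least 1.5-fold higher (1.82%), against 7.09% of all genes. At least 2-fold higher were 0 of the 55, against 1.36% of all genes.

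The second comparison asked the same of the IDO1 line. Translation factor genes hardly differed with indole there. None of the 55 genes compared was at least 1.5-fold apart, against 0.716% of all 8523 genes, of which 0.434% were higher and 0.282% lower. Initiation factors had a median log2 ratio of 0.07 with 27 of 38 above 0, against 48.8% of all genes, and elongation factors had a median of 0.01. The median of all genes was -0.01, and library totals gave medians of 0.08 and 0.01 for initiation and elongation factors.

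EIF5A, EIF4A1 and EIF4G1, which led the differences in WT, were level in the IDO1 line. EIF5A had 2112 CPM with indole, against 2065 CPM with DMF, a ratio of 1.02 (1.01 to 1.04). EIF4A1 and EIF4G1 each had a log2 ratio of 0.02. The eIF3 genes had a median log2 ratio of 0.17 with 11 of 13 above 0, among them EIF3J, a loosely bound subunit, with 18.6 CPM with indole and 14.9 CPM with DMF, 1.25-fold higher (1.07 to 1.45). EIF3K had 305 CPM with indole and 253 CPM with DMF, 1.20-fold higher (1.16 to 1.25), and EIF3I was 1.15-fold higher (1.04 to 1.28), while both were lower with indole in WT. EIF3H had 408 CPM with indole and 341 CPM with DMF, 1.19-fold higher (1.16 to 1.23). EIF4ENIF1, which carries eIF4E into the nucleus, had 37.4 CPM with indole and 31.5 CPM with DMF, 1.19-fold higher (1.07 to 1.32). EIF3C, EIF3G, EIF2B4 and EIF2B5 lay between -0.05 and 0.02 on the log2 scale. The largest ratio upward was that of EIF2S3, with 153 CPM with indole and 115.0 CPM with DMF, 1.33-fold higher (1.26 to 1.40).

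On the lower side in the IDO1 line were EIF2C3, EIF4E2, EIF1AX, EIF3L and EIF4G3. EIF2C3 had 49.0 CPM with indole and 66.2 CPM with DMF, 1.35-fold lower (1.25 to 1.47), whereas it was higher with indole in WT. EIF3L was 1.13-fold lower (1.10 to 1.16) and EIF4G3 1.09-fold lower (1.03 to 1.15). EIF1AX, which acts with EIF1 in scanning for the start codon, had 222 CPM with indole and 282 CPM with DMF, 1.27-fold lower (1.22 to 1.32), and in WT it was 1.23-fold lower with indole (1.19 to 1.28). EIF4E2, a cap-binding relative of EIF4E, had 18.9 CPM with indole and 24.4 CPM with DMF. Elongation factors ranged from -0.09 for EIF5A2 to 0.15 for EEF1A1, which had 12386 CPM with indole and 11127 CPM with DMF, 1.11-fold higher (1.11 to 1.12). EEF1A1 was therefore higher with indole in both lines.

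A model of line plus treatment, fitted to all 4 libraries, gave the effect of indole shared by the lines. By edgeR's quasi-likelihood test, 0 of 59 translation factor genes tested passed an adjusted p of 0.05, as did 0 of 13122 genes overall (0%). At an unadjusted p under 0.05 the counts were 0 of 59 and 448 of 13122, and DESeq2 gave 0 of 59 at either threshold. The fit leaves 1 residual degree of freedom, and the difference between the lines in their response to indole enters that residual. Nothing says that the libraries come from separate cultures.

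The third comparison set the IDO1 line against WT in DMF. Of 38 initiation factors, 18 had a log2 ratio above 0 and 20 below 0 (52.6%), near the share of all genes. The eEF genes were lower in the IDO1 line, all by less than 1.5-fold. None of the 55 genes reached that fold, against 2.15% of all 8500 genes, of which 0.894% were higher and 1.26% lower. All 8 eEF1 and eEF2 genes had a log2 ratio below 0, against 51.6% of all genes, but with library totals 4 of the 10 elongation factors were above 0 and their median was -0.012, against -0.11 with TMM. Initiation factors had a median of -0.04, or 0.055 with library totals, while the median of all genes was -0.01, or 0.09 with library totals.

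EEF1A1 had 11127 CPM in the IDO1 line with DMF, against 14698 CPM in WT with DMF, 1.32-fold lower (1.31 to 1.33). EEF1D had 1019 CPM in the IDO1 line and 1242 CPM in WT, 1.22-fold lower (1.20 to 1.24). EEF2 had 8257 CPM in the IDO1 line and 9221 CPM in WT, 1.12-fold lower (1.11 to 1.12). At 500 CPM or more the median of all 303 genes was -0.13, against -0.16 for the 7 elongation factors there, so abundant genes as a whole were lower to a like degree.

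Among initiation factors, EIF4B, which stimulates the eIF4A helicase, had 200.2 CPM in the IDO1 line with DMF, against 284 CPM in WT with DMF, 1.42-fold lower (1.36 to 1.47). EIF2D, which can place tRNA on the ribosome without eIF2, had 16.0 CPM in the IDO1 line and 23.0 CPM in WT, 1.44-fold lower (1.26 to 1.66). EIF3D, the eIF3 subunit that can itself bind a cap, had 237 CPM in the IDO1 line and 311 CPM in WT, 1.31-fold lower (1.27 to 1.36). EIF2S3 was 1.29-fold lower (1.23 to 1.36). The largest ratios upward, 0.28 to 0.30 on the log2 scale, were those of EIF2C3, EIF1AD, the eIF2B subunit EIF2B1, EIF4EBP2 and EIF4E2.

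The mRNAs of elongation factors and of some initiation factors are known to start with a C followed by a run of pyrimidines, the 5' terminal oligopyrimidine (TOP) element through which mTOR controls their translation. RefSeq start sites (GRCh38.p14) were found for 51 of the 63 genes. Those without one included EEF1A2, EEF1D, EIF3A, EIF3E, EIF3G, EIF3H and EIF3L. A start was counted as of this kind where its first base was C and the next 4 were C or T, at any start listed for the gene. The rule depends on the exact listed base, so a start listed a few bases off would be missed. EEF1G, whose listed start begins with A, was counted with the others. This held for 3 of 9 elongation factors (EEF1A1, EEF1B2 and EEF2). It also held for 9 of 36 initiation factors (EIF2A, EIF2D, EIF2S3, EIF3D, EIF3F, EIF3K, EIF3M, EIF4A2 and EIF4B). The share was 5.14% of the 27305 genes with a listed start. Those genes were not filtered for expression in these cells, so this is no matched background. The windows below run from 15 bases before the start to 15 bases from the start on, with the unbroken pyrimidine run from the start base in capitals. The first 8 are starts of this kind, and the last 3, of genes that led the differences in WT with indole, are not. For EIF5A, with several listed starts, the first is shown.
EEF1A1, chr6:73521018-73521047, minus strand: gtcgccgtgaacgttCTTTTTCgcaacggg
EEF1B2, chr2:206159880-206159909, plus strand: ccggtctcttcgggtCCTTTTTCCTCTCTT
EEF2, chr19:3985449-3985478, minus strand: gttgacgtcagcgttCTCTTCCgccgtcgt
EIF4B, chr12:53006441-53006470, plus strand: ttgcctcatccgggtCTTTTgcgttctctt
EIF2D, chr1:206612451-206612480, minus strand: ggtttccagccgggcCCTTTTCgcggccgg
EIF3D, chr22:36529152-36529181, minus strand: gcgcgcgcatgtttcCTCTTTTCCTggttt
EIF2S3, chrX:24054941-24054970, plus strand: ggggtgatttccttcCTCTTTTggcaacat
EIF3K, chr19:38619173-38619202, plus strand: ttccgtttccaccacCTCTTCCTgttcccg
EIF5A, chr17:7306984-7307013, plus strand: atgggtgggaacccgaccacactagcgcgc
EIF4A1, chr17:7572810-7572839, plus strand: aggcgggcactccgcCCTagtttctaagga
EIF3I, chr1:32222392-32222421, plus strand: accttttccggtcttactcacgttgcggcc

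The 4 initiation factors with the largest ratios downward in the IDO1 line in DMF, EIF2D, EIF4B, EIF3D and EIF2S3, all had such a start. This feature was examined after the ratios had been seen, and it was not tested. Initiation factors with such a start had a median log2 ratio of -0.26 with 2 of 9 above 0, or -0.16 with library totals, and the 24 others compared had a median of 0.04 with 15 above 0, or 0.14 with library totals. In WT with indole against DMF, the 9 had a median of -0.20 and the 24 a median of -0.32. With library totals these were -0.03 and -0.15. The 3 elongation factors with such a start were all above 0 there, with a median of 0.06. The 5 elongation factors with another start were EEF1E1, EEF1G, EEF2K, EIF5A and EIF5A2. Of these 5, 1 was above 0, with a median of -0.36. With library totals the medians were 0.24 for the 3 and -0.20 for the 5. The 5 include a kinase gene and EEF1E1, which is not of the elongation cycle itself, so the sets differ in more than the start. EIF3K, which has the pyrimidine run, was among the lowest of the initiation factors there, at 1.55-fold lower. The E-box CACGTG, which reads the same on both strands and is bound by MYC, was sought from 250 bases before to 50 bases after each start. It occurred in 9 of 36 initiation factors and 2 of 9 elongation factors, against 8.77% of the 27305 genes with a listed start. Those genes were not filtered for expression in these cells, so no enrichment is read from these shares. Of the genes shown, EIF4B and EIF3K have the E-box.

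**Figure D5:**
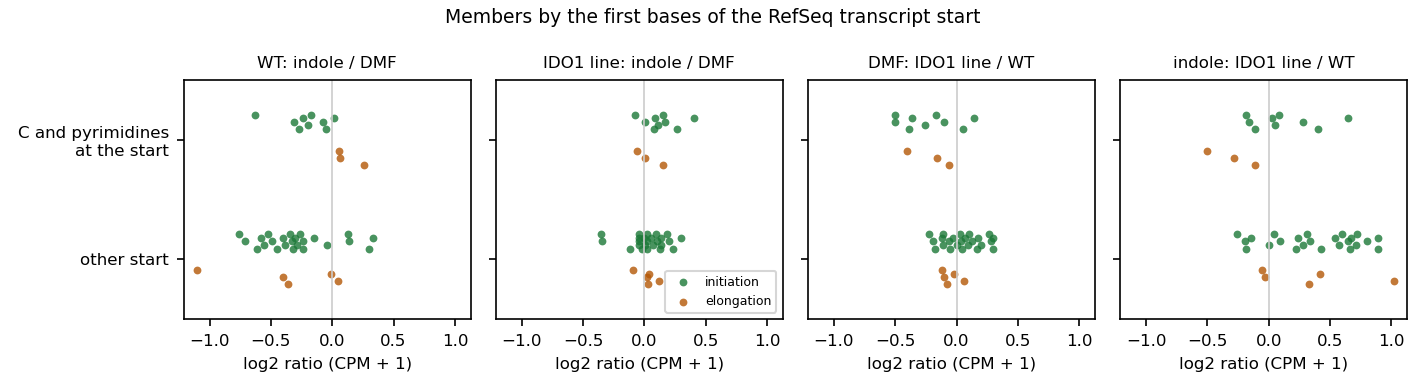
Log2 ratio of CPM plus 1 (horizontal axis) of initiation (green) and elongation (orange) factor genes with a RefSeq start, divided into those that start with C and at least 4 further pyrimidines (upper row) and the others (lower row), in the 4 comparisons. For the IDO1 line against WT in DMF, 2 of 9 green points of the upper row and 15 of 24 of the lower row lie above 0.

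The fourth comparison set the IDO1 line against WT in indole. Many initiation factor genes were higher in the IDO1 line, EIF3J the most, as was EIF5A among the elongation factors, while EEF1A1 and the Argonaute genes were lower. This comparison shares the library of WT with indole with the first one, so the genes low in that library appear here as high in the IDO1 line. Of 38 initiation factors, 29 were above 0, against 52.8% of all 8765 genes, with a median log2 ratio of 0.27, and 10 (26.3%) were at least 1.5-fold higher and 0 that much lower, against 11.6% and 9.75% of all genes (21.4% in all). With library totals 6 were at least 1.5-fold higher and the median was 0.19, while the median of all genes moved from 0.03 to -0.05. With WT in DMF in place of WT in indole, 0 were that far apart. At 10 to 50 CPM the 7 initiation factors had a median of 0.54, against -0.01 for all 4786 genes. At 50 to 100 CPM the 8 there had 0.44, against 0.04 for all 1908 genes. At 100 to 500 CPM the 16 there had 0.15, against 0.14 for all 1773 genes. At 500 CPM or more the 7 there had 0.06, against 0.15 for all 298 genes. Initiation factors were thus above genes of like abundance at low levels and close to or below them at high levels.

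EIF5A had 2112 CPM in the IDO1 line with indole, against 1040.1 CPM in WT with indole, 2.03-fold higher (1.996 to 2.07). It was the only gene of the 55 at least 2-fold higher and EIF2C2 the only one that much lower, against 2.28% and 2.22% of all genes. The 10 initiation factors were EIF3J, EIF2B2, EIF3I, EIF4E, EIF5B, EIF2B1, EIF4A1, EIF3B, EIF3K and EIF2S1. EIF2B2 had 58.1 CPM in the IDO1 line and 30.9 CPM in WT, 1.88-fold higher (1.70 to 2.08). EIF4E had 76.8 CPM in the IDO1 line and 46.3 CPM in WT, 1.66-fold higher (1.53 to 1.80). EIF5B had 52.3 CPM in the IDO1 line and 31.5 CPM in WT, 1.66-fold higher (1.497 to 1.84). EIF2S1 was just inside the threshold at 0.60 on the log2 scale and EIF4G1 just outside it at 0.58.

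Elongation factors had a median log2 ratio of -0.05 with 7 of 10 below 0, against 47.2% of all genes. EEF1A1 had 12386 CPM in the IDO1 line with indole, against 17582 CPM in WT with indole, 1.42-fold lower (1.41 to 1.43). EEF1A2 had 699 CPM in the IDO1 line and 920.1 CPM in WT, 1.32-fold lower (1.29 to 1.35). EEF1E1 went the other way and was 1.34-fold higher (1.24 to 1.45). EIF2C2 had 97.1 CPM in the IDO1 line and 201 CPM in WT, 2.07-fold lower (1.96 to 2.19). EIF4EBP3 had 31.5 CPM in the IDO1 line and 46.3 CPM in WT, 1.47-fold lower (1.32 to 1.63).

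For the effect of the line in the same model, by edgeR's quasi-likelihood test 0 of 59 translation factor genes passed an adjusted p of 0.05, against 322 of 13122 genes (2.45%). At an unadjusted p under 0.05 there were 3 of 59 (5.08%), against 9.99% of all genes, and DESeq2 gave 0 genes adjusted and 2 unadjusted, EIF2C2 and EEF1A1. The 3 genes by edgeR were EIF2C2, EIF2B2 and EIF2B1, so EIF2C2 alone passed unadjusted by both. The model put EIF2C2 at -0.69 on the log2 scale, IDO1 line over WT, with an SE of 0.24 and an adjusted p of 0.172 by edgeR's quasi-likelihood test. EIF2B2 stood at 0.51 with an adjusted p of 0.444, and EIF2B1 at 0.49 with an adjusted p of 0.451, each with an SE of 0.23. In both treatments the IDO1 line was lower for EIF2C2 and higher for EIF2B1 and EIF2B2, but by less with DMF. The log2 ratios with indole and with DMF were -1.04 and -0.32 for EIF2C2. They were 0.67 and 0.30 for EIF2B1, and 0.89 and 0.12 for EIF2B2.

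Regulators and partners of these factors were examined as lists, chosen like the members with earlier results of these data known. Among the eIF2 kinases, phosphatase subunits and the stress factors downstream, 2 of 8 genes were at least 1.5-fold higher with indole in WT, PPP1R15B and ATF4, and 0 lower, against 7.09% and 9.72% of all genes, with a median log2 ratio of 0.14, against -0.04 for all genes. PPP1R15B, which brings a phosphatase to eIF2, had 75.1 CPM with indole and 41.2 CPM with DMF, 1.82-fold higher (1.68 to 1.99). ATF4, whose translation rises when eIF2 is phosphorylated, had 812 CPM with indole and 526 CPM with DMF, 1.54-fold higher (1.51 to 1.58). SESN2, an inhibitor of mTOR complex 1, had 60.3 CPM with indole and 33.0 CPM with DMF, 1.83-fold higher (1.66 to 2.01), alone among 15 genes of mTOR and eIF4 control, a share near the 7.09% of all genes. In the IDO1 line 0 genes of these lists were that far apart with indole, against 0.716% of all genes.

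Partner factors had medians below that of all genes in WT with indole against DMF, where all genes had a median log2 ratio of -0.04 and 53.8% lay below 0. There 0 of 8 cap and poly(A) partners were above 0, with a median log2 ratio of -0.15. Termination and recycling factors had a median of -0.42 over 5 genes, enzymes that modify eIF5A, eEF1A or eEF2 a median of -0.17 over 10, and the translation factors of mitochondria a median of -0.26 over 9, all with 1 gene above 0. The lists were not matched for abundance. Across all genes in this comparison the median ran from 0.03 at 10 to 50 CPM to -0.32 at 500 CPM or more. TUFM, the mitochondrial counterpart of eEF1A, had 177 CPM with indole and 314 CPM with DMF, 1.77-fold lower (1.70 to 1.85), unlike EEF1A1. In indole, where 11.6% of all genes were at least 1.5-fold higher and 9.75% that much lower, the IDO1 line against WT had 2 of 8 cap and poly(A) partners at least 1.5-fold higher (DHX29 and NCBP2), 1 of 5 termination factors (MCTS1), 1 of 10 modifying enzymes (DPH3) and 2 of 9 mitochondrial factors (TUFM and TSFM). These lists are short, so counts of 1 or 2 are not read as standing apart from the background. DDIT4 and PDCD4, inhibitors of mTOR and of eIF4A and 2 of the 15 genes of mTOR and eIF4 control, were lower in the IDO1 line there, DDIT4 by 1.78-fold (1.70 to 1.86) and PDCD4 by 1.62-fold (1.53 to 1.72).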

How the data were processed

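Amplicon whole-transcriptome libraries with Ion barcodes were made from kit-isolated RNA, per the labels' protocols. The authors deposited raw counts of reads per target, 1 column per group, with no normalization. The submitters' processing notes name hg19; which aligner and counter were used is not given in the sources used here. Although the design text names 2 replicates each, how they map to the single columns is not stated, so each group was 1 library.

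Members and lists were chosen with earlier results of these data known. Counts were scaled by TMM (edgeR 4.0.16, R 4.3.3), and DESeq2 1.42.0 was an alternative. The additive fits used all 4 libraries, line and treatment, after filterByExpr, with Benjamini-Hochberg adjustment. A run on simulated counts held changes between lines only. It could not check the fit where the response to indole differs between lines. The SE was back-calculated from F. The rule for named genes took the 5 largest ratios each way per comparison, all eEF, eIF2, eIF2B, eIF3, eIF4F and 4E-BP genes, and regulators at least 1.5-fold apart. The start-site grouping, EIF4H, EIF5A2, EIF5B, EIF6 and other values outside that rule were chosen after values were seen. Near-identical copies were transcripts of other genes in GENCODE 29 with at least 97% identity over 150 bases (BLAST 2.17.0). Intervals cover counting error only and treat reads as independent, which PCR reads are not, so they can be too narrow. Depth limits genes under 10 CPM, where 3 reads are 0.131 to 0.157 CPM.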

Additional observations from a re-analysis of the deposited data

How the results depend on the processing

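With library totals, the median log2 ratio of initiation factors was -0.081 for indole against DMF in WT (-0.25 with TMM) and 0.055 for the IDO1 line against WT in DMF (-0.04 with TMM), and that of elongation factors for the lines in DMF was -0.012 (-0.11 with TMM). The counts of initiation factors at least 1.5-fold apart were then 0 for indole in WT (4 with TMM) and 6 for the lines in indole (10 with TMM). EIF5A is the 1 elongation factor at least 1.5-fold apart for indole in WT and for the lines in indole, so both counts were 0 when EIF5A genes were counted as initiation factors or when members with near-identical copies were left out. With the library of WT with DMF in place of WT with indole (chosen after seeing the data, as was the move of EIF5A), the counts for the lines in indole were 0 initiation and 0 elongation factors. Median-of-ratios factors, pseudocounts of 0.25 and 5 CPM and minimums of 1 and 50 CPM moved none of these medians and counts beyond their limits. Members past the adjusted threshold numbered 0 in both additive fits under all 5 alternatives, DESeq2 included, so fold changes of called members were not computed. EIF3I, EIF3K, EIF4A1 and EIF4G1 lost the 1.5-fold threshold for indole in WT with library totals and EIF2C3 passed it, and EIF2B2 passed it with median-of-ratios factors and with a pseudocount of 0.25 CPM. For the lines in indole, EIF2S1, EIF3B, EIF3K and EIF4A1 lost it with library totals, EIF4EBP3 passed it, and EIF2S1 lost it with a pseudocount of 5 CPM. No paired analysis was possible because each group has 1 library and no replicate numbers to pair; the fit of line plus treatment already sets indole against DMF within each line. No library could be left out of that fit because 0 residual degrees of freedom would remain.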
